A study of Rattus norvegicus with 24 samples.

Results

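Genes of the piRNA pathway, namely Ddx4, Mael, Piwil2, Piwil4, Tdrd1, Tdrd9, Tdrkh, Asz1, Mov10l1 and Gtsf1, were followed through a culture model of the neonatal rat testis. They were taken by symbol, whatever their values, and make up 10 of the 21425 genes in the expression table. piRNAs are small RNAs that guide PIWI proteins to transposon transcripts in germ cells. Precursor RNAs are handed to mitochondria and processed there. The PIWI proteins then cleave transposon RNA or, in foetal male germ cells, direct DNA methylation to transposon copies. Most of these factors are made almost exclusively in germ cells, and male mice that lack Ddx4, Mael, Piwil2, Tdrd1 or Mov10l1 are sterile.

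Every library came from wild-type Sprague Dawley rats. Testis cells were isolated on postnatal day 5 as a whole mixture, with no cell type enriched or depleted, and messenger RNA was sequenced in bulk. The 24 libraries form 8 groups of 3 and belong to 2 separate experiments. The baseline experiment used 1 litter. Its cells were sequenced directly after isolation, a group called tissue below, and again after 3, 5 and 7 days in a serum-free Matrigel culture, and its libraries are labelled as treatment controls. The 3 libraries of each baseline group are technical replicates, and p-values there measure technical spread rather than differences between litters. In the induction experiment, cultures from 3 litters were taken on day 10 before hormones (0 h), or 2, 12 and 48 h after 50 mIU/mL luteinizing hormone (LH) and 20 mIU/mL follicle-stimulating hormone (FSH) were given in fresh medium. Each of its libraries pooled 3 replicate cultures of 1 litter. Since no untreated library at 2, 12 or 48 h was analysed, an effect of the hormones cannot be told apart from one of the fresh medium or of a longer culture. A 6 h group is not analysed here.

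Levels are in CPM, each gene's reads put on a common scale for library size. Libraries held 17.3 to 30.4 M reads in the baseline experiment, where 1 read was worth 0.0329 to 0.0579 CPM, and 15.8 to 28.3 M reads in the induction experiment, where 1 read was worth 0.0353 to 0.0633 CPM. CPM is not scaled to transcript length, so levels are compared between libraries and never between genes. The 2 experiments differ in litters and in culture age and were not tested against each other. Fold changes are log2 differences of CPM + 1, given ± SE, with n = 3 libraries per group. The + 1 makes the change of low genes look smaller than it is. All adjusted p-values are from limma over all genes tested, and a gene was called changed at an adjusted p under 0.05. All 10 genes could be tested in both experiments, but Gtsf1 passed the filter on low values in the baseline experiment only through its tissue level.

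The promoters of 8 of the 10 genes were found in RefSeq's rat sequences (build GRCr8), and Piwil2 and Tdrd9 are only named here. For each gene, here and among all promoters, only the first listed start was used, and other starts were not searched. In the 250 bases before the annotated start, CCAAT, the box bound by the trimeric factor NF-Y, was present on one strand or the other in 8 of 8, against 34.3% of 27457 promoters of the same length. Promoters were also found for 13 further piRNA factors. Among these the box lay in those of Piwil1, Tdrd5, Henmt1, Gpat2, Exd1, Btbd18 and Stk31. It was absent from those of Tdrd6, Tdrd7, Tdrd12, Pld6, Pnldc1 and Fkbp6. The stretch around the copy nearest the start is shown for each, 30 bases read 5′ to 3′ on the gene's strand, with the CCAAT box or its complement ATTGG in capitals.

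Ddx4, chr2:46016094-46016123, minus strand: ctgagggcgctgATTGGctgtcgagccccg

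Mael, chr13:81029645-81029674, minus strand: cgctgcgtcctgATTGGctaagcgcctggc

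Piwil4, chr8:19861300-19861329, minus strand: tcaaccatactcCCAATctccgagtcacag

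Tdrd1, chr1:265880868-265880897, plus strand: ccgccaccggccCCAATcggctcagcgcca

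Tdrkh, chr2:184738185-184738214, plus strand: aagagagcgttgATTGGtgagaacgtgcta

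Asz1, chr4:47422159-47422188, minus strand: tcccttaaagcaATTGGaagtatcatggag

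Mov10l1, chr7:121949769-121949798, plus strand: cacaacaaccccATTGGctgggttctacag

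Gtsf1, chr7:136436053-136436082, minus strand: ctcatagtttccCCAATgattgccattaat

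The boxes shown in capitals begin between 39 bases before the start, in Mael, and 200 bases before it, in Asz1. Tdrkh held 4 copies of the box, Mael 3, Mov10l1 2 and the other promoters 1 each. The E-box CACGTG lay in 4 of 8, those of Ddx4, Mael, Tdrd1 and Mov10l1, against 5.79% of all promoters. Among the further piRNA factors it lay in Piwil1, Pnldc1, Fkbp6 and Stk31. AACNG, a core of sites for MYB factors such as the piRNA regulator A-MYB (Mybl1), lay in 7 of 8 against 75.2%. TCCCGC, part of E2F sites, lay in 2 of 8 against 16.9%, and TATAAA in 0 of 8 against 13.1%. Each motif was searched on both strands. The promoters held a median of 15.5 CpG dinucleotides, from 1 in Gtsf1 to 30 in Ddx4, against a median of 6 over all promoters. The shares over all promoters are not matched for this content. A match describes the letters and is not a measured binding site. The upstream sequence of Mael shows how these features lie together, with its 3 CCAAT boxes in capitals and the E-box in lower case among its first bases.

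Mael, chr13:81029624-81029873, minus strand: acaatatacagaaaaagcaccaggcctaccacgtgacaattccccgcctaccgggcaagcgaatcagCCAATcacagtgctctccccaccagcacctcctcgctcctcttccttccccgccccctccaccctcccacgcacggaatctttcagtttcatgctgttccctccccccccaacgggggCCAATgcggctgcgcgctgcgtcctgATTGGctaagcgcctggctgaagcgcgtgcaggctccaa

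The first question was what happened to the pathway when testis cells were moved into culture. By day 3, 9 of the 10 genes had fallen and 0 had risen, against 26.8% of all tested genes that fell and 29.1% that rose. Leaving aside Gtsf1, whose direction the filter fixed, 8 of 9 had fallen. The median log2 change of the 10 genes was -2.69, beside 0.02 over all genes tested. The exception was Tdrkh, which was not called at day 3. In bulk RNA, fewer germ cells and less RNA per germ cell cannot be told apart. The germ cell markers, a list of 13 genes such as Dazl and Sall4, moved at the same time. Their summed level was 253 to 291 CPM in the tissue libraries and 58.2 to 82.2 CPM in the 9 culture libraries, and 9 of the 11 tested fell by day 3. Sohlh2 and Nanos2 passed the filter on low values only through their tissue levels, and 7 of the other 9 fell. The 10 piRNA genes together went from 321 to 372 CPM in tissue to 67.7 to 99.7 CPM in culture. Both sums rest largely on a few high genes. At day 3 the piRNA sum had a mean of 82.3 CPM, of which Tdrkh gave 37.5 and Tdrd9 18.7. The germ cell sum had a mean of 65.4 CPM, of which Kit gave 28.4 and Ret 17.3. The part of cell number in these results was not tested.

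**Figure D1:**
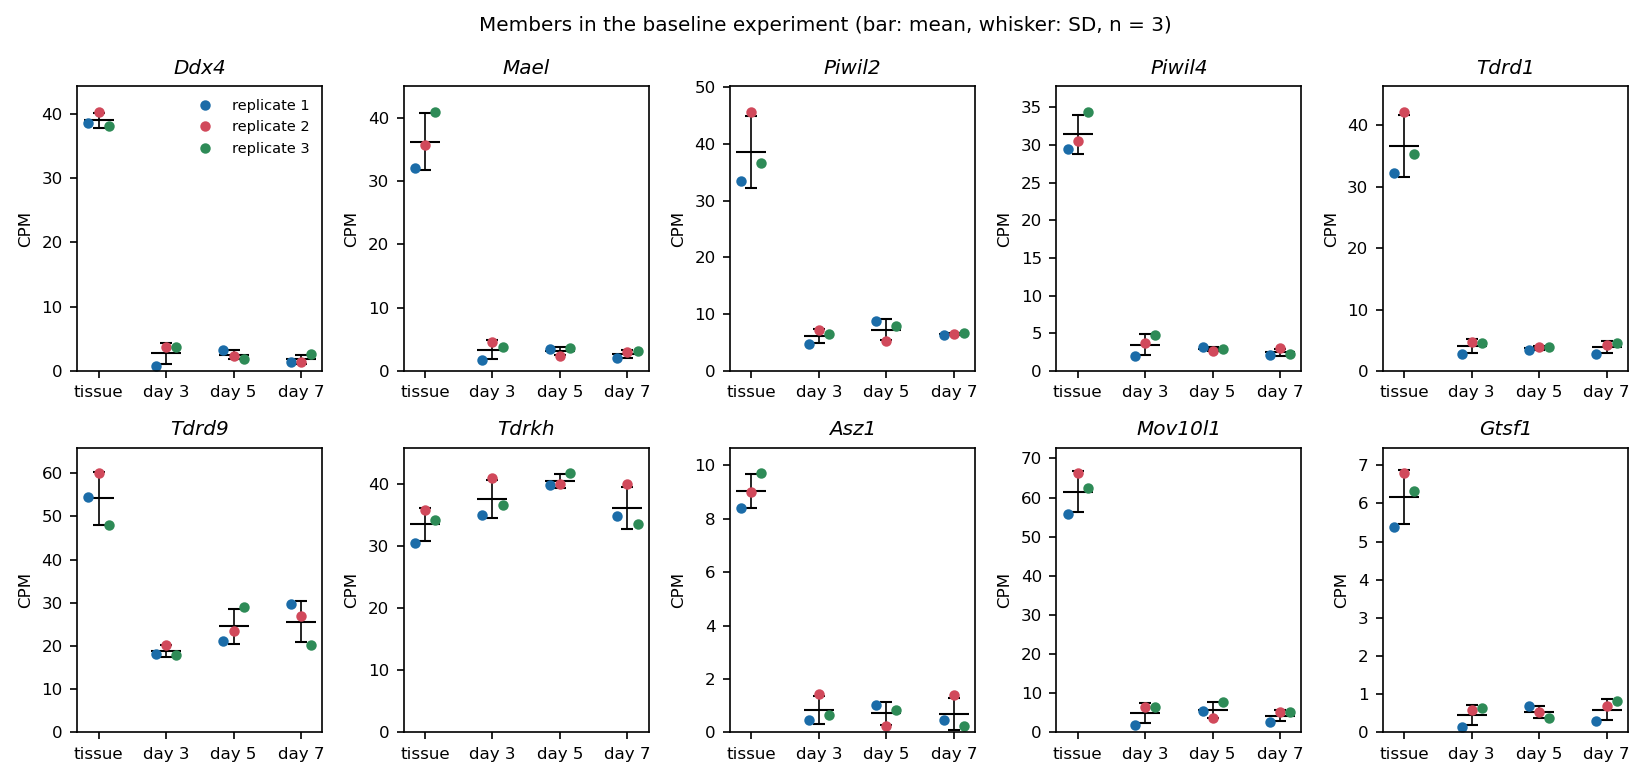
Level of each of the 10 piRNA pathway genes in CPM (vertical axis, starting at 0, own scale per gene) in tissue and after 3, 5 and 7 days of culture (horizontal axis); points are single libraries and the bars are group means with SD, n = 3. For 9 genes every culture library lies below every tissue library, and for Tdrkh the culture libraries lie among or above the tissue libraries. How many of all genes separate in this way was not counted.

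Ddx4, also known as Vasa, is an RNA helicase of the germ granule and a widely used germ cell marker. It stood at 38.5, 40.3 and 38.1 CPM in the 3 tissue libraries and at 0.830, 3.68 and 3.65 CPM at day 3. At day 5 it had 3.30, 2.34 and 1.90 CPM, and at day 7 it had 1.43, 1.39 and 2.59 CPM. No culture library came near a tissue library, and the culture groups overlapped one another. The change from tissue to day 3 was -3.55 ± 0.31 (limma adjusted p = 6.99e-07), and to day 7 -3.86 ± 0.31 (limma adjusted p = 2.55e-07). Over the 9 culture libraries Ddx4 kept between 2.13% and 9.46% of its tissue mean.

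Among the helicases, Mov10l1 binds piRNA precursors and feeds them into processing. Its tissue libraries had 55.9, 66.2 and 62.5 CPM and its day 3 libraries 1.89, 6.41 and 6.61 CPM. It had 5.56, 3.63 and 7.72 CPM at day 5 and 2.70, 5.12 and 5.12 CPM at day 7. The first library of day 3 was far below the other 2, as it was for Ddx4. The change to day 3 was -3.51 ± 0.34 (limma adjusted p = 1.85e-06). Tdrd9, a helicase with a Tudor domain that partners Piwil4, fell by a smaller amount. It stood at 54.6, 59.9 and 47.9 CPM in tissue and 18.1, 20.3 and 17.8 CPM at day 3. It then had 21.1, 23.5 and 28.9 CPM at day 5 and 29.7, 27.0 and 20.3 CPM at day 7. Tissue and culture did not overlap, but Tdrd9 kept a median of 39.1% of its tissue mean in culture, from 32.9% to 54.8%. Its change was -1.48 ± 0.16 at day 3 (limma adjusted p = 3.85e-06), -1.12 ± 0.16 at day 5 (limma adjusted p = 4.01e-05) and -1.06 ± 0.16 at day 7 (limma adjusted p = 5.88e-05). The gene model of Tdrd9 overlaps that of Rd3l, which had 2.50 ± 0.290 CPM in tissue (SD, n = 3) and 0.701 ± 0.290 CPM at day 3, and the libraries do not record strand, so reads of overlapping genes cannot be told apart.

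The PIWI proteins are the partners of the piRNAs themselves. Piwil2 (MILI) is cytoplasmic and makes the first cut, and Piwil4 (MIWI2) carries piRNAs to the nucleus. Piwil2 had 33.5, 45.6 and 36.7 CPM in tissue and 4.83, 7.19 and 6.45 CPM at day 3. Later it had 8.75, 5.24 and 7.88 CPM at day 5 and 6.37, 6.50 and 6.70 CPM at day 7. It kept 12.5% to 22.7% of its tissue mean in culture, and its change to day 3 was -2.47 ± 0.19 (limma adjusted p = 2.30e-07). Piwil4 had 29.5, 30.5 and 34.4 CPM in tissue and 2.04, 3.65 and 4.81 CPM at day 3. It then had 3.13, 2.62 and 2.86 CPM at day 5 and 2.12, 3.03 and 2.23 CPM at day 7. Its change was -2.90 ± 0.21 at day 3 and -3.23 ± 0.21 at day 7 (limma adjusted p = 1.43e-07 and 3.96e-08). Both PIWI genes were lower in each culture library than in any tissue library. Piwil1 (MIWI), the PIWI protein of later meiotic and haploid cells, was under the filter at 0.584 ± 0.309 CPM in tissue (SD, n = 3).

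Tudor domain proteins hold PIWI proteins in place by their methylated arginines. Tdrd1, the partner of Piwil2 in the germ granule, stood at 32.3, 42.2 and 35.3 CPM in tissue and at 2.72, 4.79 and 4.60 CPM at day 3. It had 3.42, 3.91 and 3.92 CPM at day 5 and 2.81, 4.25 and 4.57 CPM at day 7. The groups of culture lay close together and far below tissue, with a change to day 3 of -2.92 ± 0.20 (limma adjusted p = 8.80e-08). Its gene model overlaps that of Ccdc186, which had 33.9 ± 1.40 CPM in tissue and 34.7 ± 3.52 CPM at day 3 (SD, n = 3).

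Tdrkh, the Tudor protein that anchors piRNA processing to the mitochondrial surface, did not follow. It had 30.5, 35.8 and 34.3 CPM in tissue, 35.0, 40.9 and 36.7 CPM at day 3, 39.8, 40.0 and 41.7 CPM at day 5 and 34.9, 40.0 and 33.6 CPM at day 7. The tissue libraries overlapped those of day 3 and day 7 and lay below those of day 5. The changes were 0.16 ± 0.11 at day 3 (limma adjusted p = 0.230, 95% interval -0.07 to 0.39) and 0.11 ± 0.11 at day 7 (limma adjusted p = 0.417, 95% interval -0.13 to 0.34). At day 5 the gene was called higher by 0.27 ± 0.11 (limma adjusted p = 0.0466), and this call was lost when any of 9 libraries was left out (adjusted p 0.0501 to 0.182). The interval at day 3 lay above the intervals of the other 9 genes.

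Asz1 (GASZ) is a second scaffold of the mitochondrial site, and Gtsf1 is a small zinc finger cofactor of PIWI proteins. Asz1 had 8.42, 8.99 and 9.70 CPM in tissue and 0.453, 1.44 and 0.634 CPM at day 3. Its day 5 libraries had 1.04, 0.242 and 0.847 CPM and its day 7 libraries 0.459, 1.39 and 0.254 CPM. These culture levels rest on 5 to 39 reads per library, so their order says little. Gtsf1 had 5.39, 6.79 and 6.32 CPM in tissue and 0.151, 0.590 and 0.634 CPM at day 3, on 4 to 16 reads per culture library. It had 0.695, 0.524 and 0.370 CPM at day 5 and 0.287, 0.694 and 0.812 CPM at day 7. Both were lower in every culture library than in any tissue library. The change to day 3 was -2.48 ± 0.27 for Asz1 (limma adjusted p = 5.31e-06). For Gtsf1, whose direction the filter fixed, it was -2.31 ± 0.20 (limma adjusted p = 5.66e-07). With a pseudocount of 0.25 in place of 1 these changes were -3.19 and -3.26.

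Mael (Maelstrom), which joins the processing bodies that hold Piwil4, had 32.1, 35.7 and 40.9 CPM in tissue and 1.70, 4.64 and 3.70 CPM at day 3. It had 3.48, 2.42 and 3.54 CPM at day 5 and 2.01, 2.99 and 3.15 CPM at day 7. Tissue and culture were far apart, and the change to day 3 was -3.16 ± 0.25 (limma adjusted p = 2.56e-07).

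The lower levels lasted. Against tissue, 9 of the 10 genes fell and 1 (Tdrkh) rose at day 5, beside 30.3% of all tested genes that fell and 29.6% that rose. At day 7, 9 fell and 0 rose, beside 31.4% and 28.5%. At both days the 9 include Gtsf1, whose direction the filter fixed. The 3 comparisons share the tissue libraries. The medians of the 10 genes were -2.78 at day 5 and -2.79 at day 7, against -0.03 and -0.05 over all genes.

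**Figure D2:**
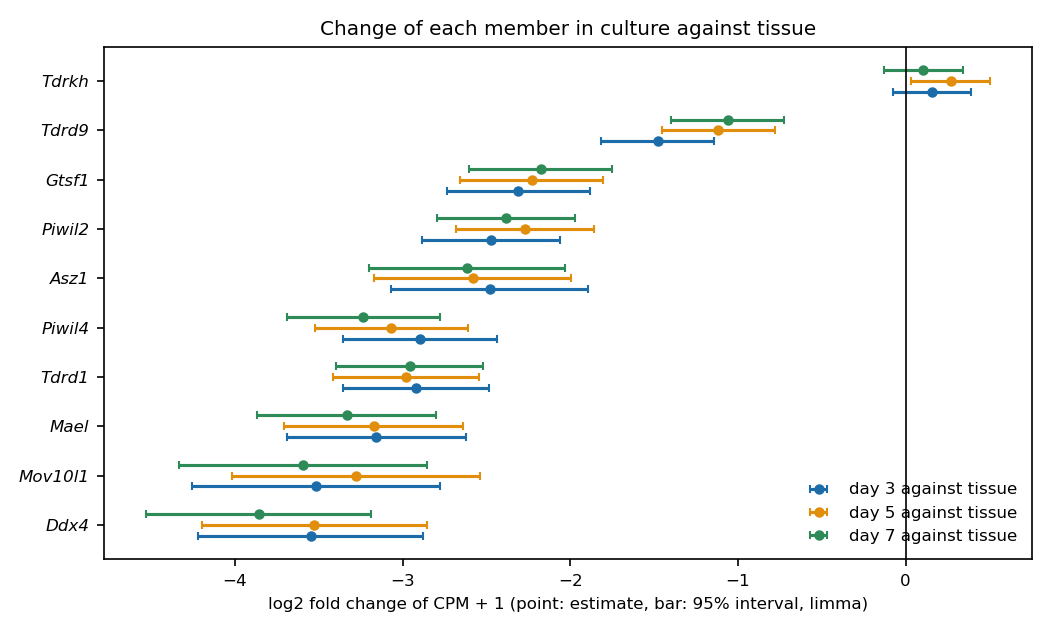
Log2 fold change on the CPM + 1 scale (horizontal axis) of each of the 10 genes (vertical axis) at days 3, 5 and 7 of culture against tissue; points are limma estimates and bars their 95% intervals. The 9 genes that fell lie between -3.86 and -1.06, and Tdrkh lies between 0.11 and 0.27.

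Within the culture period no further change was called. Between day 3 and day 5, day 5 and day 7, and day 3 and day 7, limma called 0 of the 10 genes each time, where it called 0.115%, 0.0766% and 3.79% of all genes. At an unadjusted p under 0.05 there were 1, 0 and 1, Tdrd9 in both cases, beside 11.9%, 13.9% and 14.8% of all genes. edgeR called 0, 0 and 0 of the 10, beside 16, 10 and 463 of all genes. DESeq2 called 0, 0 and 1 of the 10, beside 1%, 1.88% and 6.14% of all genes. The gene called by DESeq2 was Tdrd9, higher at day 7 than at day 3 by 0.42 ± 0.16 in limma (adjusted p = 0.197, 95% interval 0.08 to 0.76) and by 0.51 in DESeq2 (adjusted p = 0.0411). The other 9 genes changed by between -0.34 (Piwil4) and 0.13 (Gtsf1). The 95% intervals were wide for Ddx4 (-0.98 to 0.36) and Mov10l1 (-0.82 to 0.66), and smaller changes of these genes were not detectable here. The first library of day 3 was the lowest of the 9 culture libraries for 7 of the 10 genes, and its summed germ cell markers, 58.7 CPM, were the second lowest of the 9. How often that library was the lowest over all genes was not counted. Without it, the change from tissue to day 3 was -3.10 for Ddx4 and -3.05 for Mov10l1, and 0 genes were called between day 3 and day 7. The change from day 3 to day 7 without it was -0.76 for Ddx4, -0.60 for Piwil4, -0.54 for Mov10l1 and -0.49 for Mael, larger falls than with it.

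Other genes of the pathway moved in both directions. Of 16 further piRNA factors in the table, 14 were tested and 10 fell by day 3, 2 rose and 2 were not called, with a median of -1.69. Exd1 and Btbd18 among those that fell passed the filter only through tissue, and 8 of the other 12 fell. Stk31, a Tudor and kinase domain protein, went from 43.3 ± 3.95 to 3.55 ± 0.445 CPM (SD, n = 3), a change of -3.28 ± 0.23 (limma adjusted p = 9.83e-08). Tdrd5, a germ granule organiser, went from 101 ± 4.87 to 10.8 ± 4.02 CPM (-3.19 ± 0.25). Tex15, which links Piwil4 to DNA methylation, went from 96.3 ± 15.7 to 10.4 ± 3.76 CPM (-3.13 ± 0.27). Gpat2, a mitochondrial protein that binds Piwil2, fell by 2.50 ± 0.22 on the log2 scale. Fkbp6, a cochaperone that helps load PIWI proteins, rose from 75.1 ± 1.23 to 129 ± 11.1 CPM (0.77 ± 0.08, limma adjusted p = 5.31e-06). Tdrd7, a Tudor protein that also acts in the lens of the eye, rose from 47.9 ± 3.44 to 74.0 ± 3.80 CPM (0.62 ± 0.10, limma adjusted p = 0.000197). Piwil1 and Tdrd6 were under the filter, and Pld6 (-0.27) and Henmt1 (0.66) were not called.

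**Figure D3:**
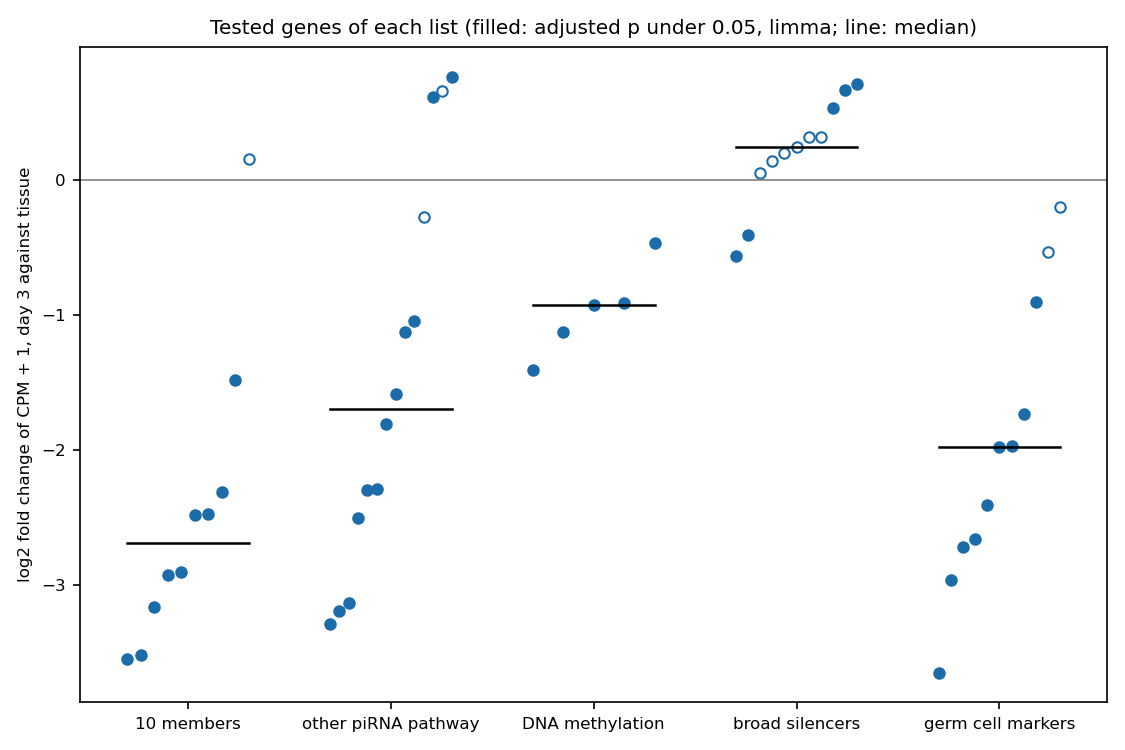
Log2 fold change from tissue to day 3 on the CPM + 1 scale (vertical axis) of each tested gene of 5 lists (horizontal axis); filled points passed the limma test at an adjusted p under 0.05, open points did not, and lines are list medians. The 10 piRNA genes (shown as members) and the germ cell markers lie mostly below 0, with medians of -2.69 and -1.97, and the broadly expressed silencers lie around 0, with a median of 0.24.

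The partners in DNA methylation and the silencers that act in many tissues had medians nearer 0. Of 6 genes for DNA methylation and its partners, 5 were tested and 5 fell by day 3, with a median of -0.92. Uhrf1, which brings the maintenance enzyme to newly copied DNA, fell by 1.12 ± 0.14 and Dnmt1, that enzyme, by 0.91 ± 0.11 on the log2 scale (limma adjusted p = 1.35e-05 and 1.68e-05). Morc1, a germ cell protein needed to silence transposons, fell by 1.40 ± 0.17, but it passed the filter only through its tissue level, so its direction was fixed by the filter. The other 4 tested also fell. Dnmt3l, a cofactor of new methylation, was under the filter at 0.567 ± 0.346 CPM in tissue (SD, n = 3). Of 11 broadly expressed silencers, 2 fell and 3 rose, with a median of 0.24. Trim28 (KAP1), the corepressor of zinc finger proteins, went from 733 ± 10.3 to 497 ± 26.8 CPM (-0.56 ± 0.11), and the histone methyltransferase Setdb1 fell by 0.40 ± 0.09. Tasor and Morc2, of the HUSH system, rose by 0.71 ± 0.14 and 0.53 ± 0.11, and Zc3hav1 (ZAP) by 0.67 ± 0.11.

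Markers of other cell types moved in different directions. Summed Sertoli cell markers were at 1888 to 1943 CPM in tissue and 3192 to 4314 CPM in culture, and 6 of 6 tested rose by day 3. Summed markers of peritubular myoid cells were at 1310 to 1480 CPM in tissue and 2681 to 4422 CPM in culture, and 4 of 5 rose. Mesothelial markers rose in 2 of 2 tested. Summed macrophage markers were lower in culture, at 5.34 to 17.9 CPM against 25.7 to 35.9 CPM in tissue, and by day 3 1 of 5 fell and 1 rose. By day 3 the Leydig list had 2 markers lower and 2 higher among 5 tested, and the endothelial list 1 lower and 1 higher among 3. Since CPM are shares of a library, a larger share of somatic RNA and a smaller share of germ cell RNA cannot be told apart in these values. Among the germ cell markers, Stra8, which marks the approach to meiosis, was under the filter. It had 0.833 to 2.27 CPM in the tissue libraries, with a mean of 1.75. In culture its highest level was 0.0529 CPM at day 3, and it was at 0 in each day 5 and day 7 library.

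The second question was whether the genes changed after LH and FSH, whose receptors lie on somatic cells. None of the 10 genes was called in any of the 6 comparisons among 0, 2, 12 and 48 h. This held with limma, edgeR, DESeq2 and limma with litter as a block, which each called 0 of 10 each time. DESeq2 called 3.03%, 0.0723% and 3.37% of all genes at 2, 12 and 48 h against 0 h. For 12 h against 2 h, 48 h against 12 h and 48 h against 2 h it called 3.11%, 0.683% and 16.3%. Over all genes edgeR called 6, 0 and 38 at 2, 12 and 48 h against 0 h. It called 11 for 12 h against 2 h, 0 for 48 h against 12 h and 1348 for 48 h against 2 h. limma called 0%, 0% and 0.394% of all genes at 2, 12 and 48 h against 0 h. Between the later times it called 0% for 12 h against 2 h, 0% for 48 h against 12 h and 7.96% for 48 h against 2 h. With the block limma called 0.618%, 0% and 4.35% of all genes at 2, 12 and 48 h against 0 h, and 2.96%, 0.715% and 22.1% between the later times in the same order. At an unadjusted p under 0.05 there were 0 of 10 genes at 2 h, 1 at 12 h and 0 at 48 h against 0 h, beside 10.7%, 2.5% and 13% of all genes. For 12 h against 2 h, 48 h against 12 h and 48 h against 2 h there were 0, 1 and 0, beside 13.3%, 6.8% and 25.1% of all genes. The gene was Tdrd9 in both cases. These counts come from the fit without litter. With litter as a block there were 1 at 2 h (Tdrkh), 3 at 12 h (Ddx4, Tdrd9 and Tdrkh) and 2 at 48 h (Ddx4 and Tdrkh) against 0 h, beside 18.3%, 8.03% and 23.7% of all genes. For 12 h against 2 h, 48 h against 12 h and 48 h against 2 h the block gave 1 (Ddx4), 1 (Tdrd9) and 4 (Ddx4, Piwil4, Tdrd1 and Asz1), beside 23.1%, 13.3% and 37.1%. None of these passed the adjustment over all genes, with a lowest adjusted p of 0.0722 in limma with the block, for Piwil4 at 48 h against 2 h.

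**Figure D4:**
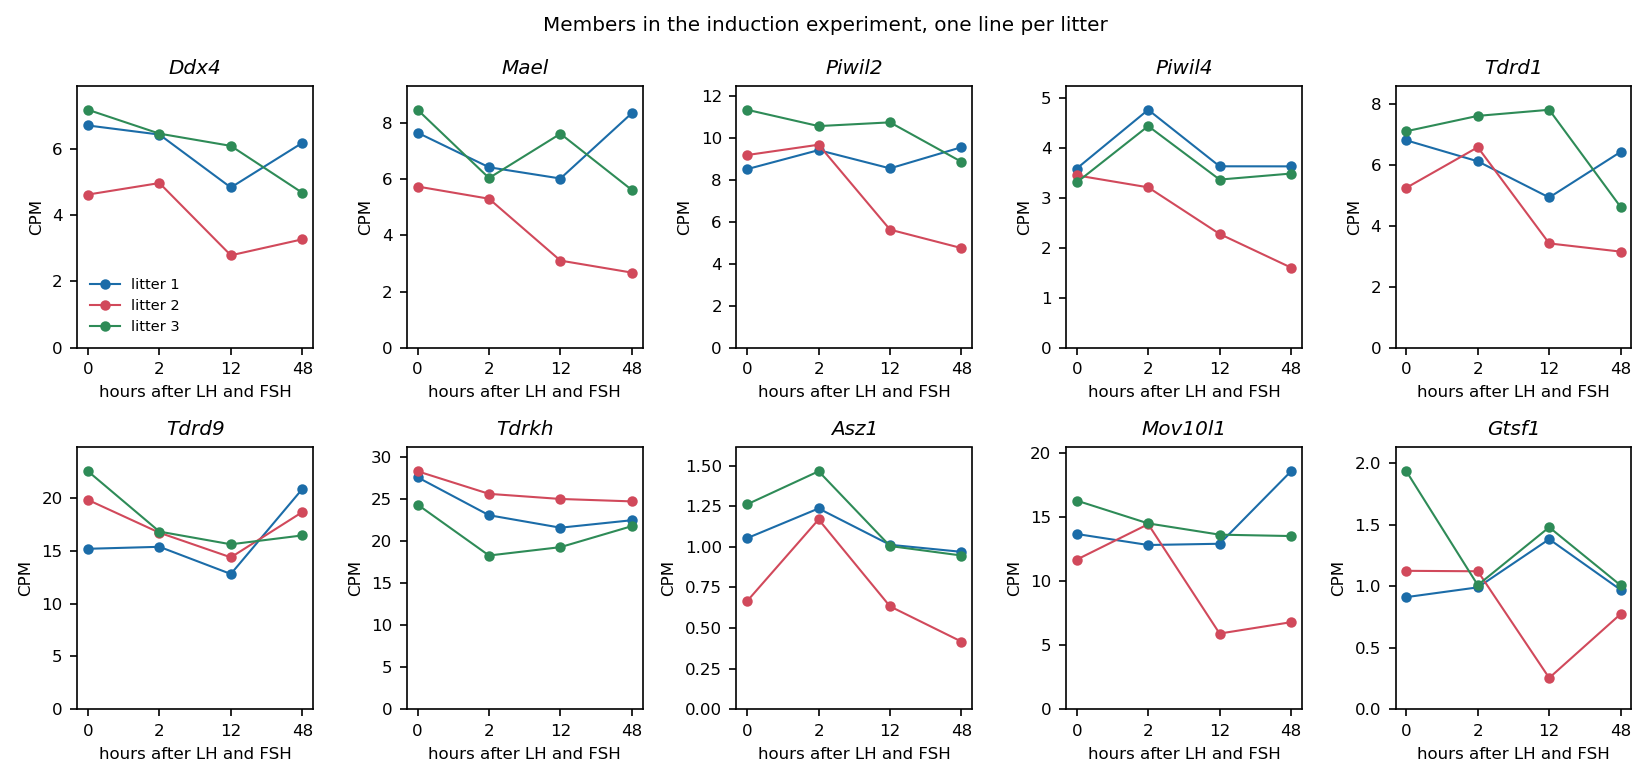
Level of each gene in CPM (vertical axis, starting at 0) at 0, 2, 12 and 48 h after hormones (horizontal axis, evenly spaced and not to scale in time); each line joins the 4 libraries of 1 litter. Litter 2 is the lowest of the 3 litters for 8 of the 10 genes at 12 h and for 8 at 48 h. The share over all genes was not counted.

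Ddx4 had 6.71, 4.62 and 7.18 CPM at 0 h in litters 1, 2 and 3, and 6.43, 4.97 and 6.46 CPM at 2 h. It had 4.83, 2.79 and 6.09 CPM at 12 h and 6.18, 3.27 and 4.67 CPM at 48 h. The times overlapped, and litter 2 was the lowest at each of them. The change to 48 h was -0.34 ± 0.25 (limma adjusted p = 0.592, 95% interval -0.89 to 0.21). This and the changes of single genes below are from the fit without litter, unless the block is named. That fit ignores the pairing by litter, and its SE was larger than with litter as a block for each of these genes. With the block the SE for Ddx4 was 0.14, and its 95% interval reached 0.31 to either side and so lay below 0. Its adjusted p in limma with the block was 0.170. Mov10l1 had 13.7, 11.7 and 16.3 CPM at 0 h, 12.8, 14.4 and 14.5 CPM at 2 h, 12.9, 5.89 and 13.6 CPM at 12 h and 18.5, 6.77 and 13.5 CPM at 48 h. At 48 h it was above its 0 h level in litter 1 and below it in litters 2 and 3, for a change of -0.18 ± 0.33 (limma adjusted p = 0.847).

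Among the PIWI genes, Piwil2 had 8.53, 9.20 and 11.4 CPM at 0 h and 9.44, 9.69 and 10.6 CPM at 2 h. It had 8.56, 5.64 and 10.8 CPM at 12 h and 9.57, 4.75 and 8.88 CPM at 48 h. Litters 1 and 3 stayed within the range of 0 h at each time, and litter 2 was below it at 12 and 48 h. Piwil4 had 3.59, 3.45 and 3.31 CPM at 0 h, 4.77, 3.21 and 4.44 CPM at 2 h, 3.64, 2.28 and 3.37 CPM at 12 h and 3.64, 1.60 and 3.49 CPM at 48 h. The low values at 12 and 48 h were again those of litter 2. The changes to 48 h were -0.33 ± 0.24 for Piwil2 and -0.23 ± 0.23 for Piwil4 (limma adjusted p = 0.585 and 0.690).

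At 12 h, 6 genes were below their own 0 h level in 3 of 3 litters, namely Ddx4, Mael, Asz1, Mov10l1, Tdrd9 and Tdrkh. The share of all genes lower in 3 of 3 litters was not counted, so this count is no result about the pathway. Tdrd9 had 15.2, 19.8 and 22.5 CPM at 0 h and 12.8, 14.4 and 15.6 CPM at 12 h. The change was -0.39 ± 0.14 (unadjusted p = 0.0163 and adjusted p = 0.993 in limma), so it did not hold against all genes tested. At 2 h it had 15.4, 16.7 and 16.8 CPM and at 48 h 20.8, 18.7 and 16.4 CPM. Tdrkh had 27.6, 28.3 and 24.3 CPM at 0 h, 23.1, 25.6 and 18.3 CPM at 2 h, 21.6, 25.0 and 19.3 CPM at 12 h and 22.5, 24.7 and 21.8 CPM at 48 h. In each litter 0 h was the highest of the 4 times. The change to 2 h was -0.26 ± 0.13 (limma adjusted p = 0.522), and with litter as a block its adjusted p was 0.117.

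Mael had 7.66, 5.74 and 8.48 CPM at 0 h, 6.43, 5.31 and 6.05 CPM at 2 h, 6.03, 3.10 and 7.63 CPM at 12 h and 8.36, 2.67 and 5.62 CPM at 48 h. Tdrd1 had 6.80, 5.24 and 7.10 CPM at 0 h, 6.11, 6.58 and 7.60 CPM at 2 h, 4.93, 3.42 and 7.80 CPM at 12 h and 6.42, 3.15 and 4.62 CPM at 48 h. In both the groups overlapped, and the changes to 48 h were -0.43 ± 0.32 and -0.40 ± 0.25 (limma adjusted p = 0.606 and 0.533). Asz1 ranged from 0.416 to 1.47 CPM over the 12 libraries on 7 to 35 reads, and Gtsf1 from 0.253 to 1.93 CPM on 4 to 49 reads. The changes to 48 h were -0.17 ± 0.19 for Asz1 (95% interval -0.58 to 0.23) and -0.25 ± 0.25 for Gtsf1 (95% interval -0.80 to 0.29).

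Compared with 0 h, the 10 genes ranged from -0.26 to 0.21 at 2 h, from -0.40 to -0.08 at 12 h and from -0.43 to -0.03 at 48 h, all sharing the 0 h libraries. The 95% intervals at 48 h reached from -1.13 to 0.53 in the fit without litter, with the lower end that of Mael and the upper end that of Mov10l1. With litter as a block these intervals were narrower. They reached 0.45 in place of 0.71 to either side for Mael, and 0.52 in place of 0.71 for Mov10l1. The lowest values at 12 and 48 h were mostly those of litter 2. In it, 10 of 10 genes were below their own 0 h level at 12 h, with a median ratio of 0.632, and 10 of 10 at 48 h, with a median ratio of 0.613. Without its 48 h library the changes at 48 h lay between -0.26 and 0.19, and 0 genes were called. In litter 1, 4 of 10 were below 0 h at 48 h (median ratio 1.04), and in litter 3, 9 of 10 (median ratio 0.740). Shares of all genes below 0 h in each litter were not counted, so these counts only describe the 10 genes. The summed germ cell markers went from 74.4 CPM at 0 h to 60.1 at 12 h and 55.1 at 48 h in litter 2, from 78.4 at 0 h to 92.8 at 48 h in litter 1 and from 90.4 to 61.8 in litter 3. The litter 2 libraries of 12 and 48 h held 15.8 and 16.8 M reads, beside 24.0 M in the 0 h library of that litter. The other libraries held 21.7 and 16.9 M at 12 h and 16.5 and 16.9 M at 48 h. The part of germ cell number and of depth in this pattern was not tested.

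Of the other pathway lists, Tdrd7 fell between 2 and 48 h, from 69.5 ± 6.24 to 45.0 ± 2.60 CPM (SD, n = 3; -0.61 ± 0.11, limma adjusted p = 0.00824). It was 1 of 14 further piRNA factors tested. Over the same interval the de novo methyltransferase Dnmt3a rose by 0.44 ± 0.10, as 1 of 4 methylation genes tested, and Atf7ip, a partner of Setdb1, by 0.36 ± 0.10, as 1 of 11 broad silencers (limma adjusted p = 0.0241 and 0.0446). Of all genes 7.96% were called in this comparison, and calls in the lists near that share are no result about them.

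As a description of which genes varied with these 10 from library to library, each gene was set against their mean log2 level over the 12 induction libraries, which share 3 litters. The 5 most alike were Mageb2 (r = 0.94), Nlrp4 (0.93), Nptx1 (0.93), Tuba3b (0.92) and Stag3 (0.92). Over the 12 baseline libraries, where tissue and culture are far apart, the same genes had r from 0.96 to 0.99. Over the 9 culture libraries alone r was 0.90 for Nlrp4, 0.59 for Tuba3b, 0.53 for Mageb2, 0.46 for Stag3 and -0.02 for Nptx1. Within the 10, Ddx4, Piwil2, Mael, Mov10l1 and Tdrd1 each had r of at least 0.90 with the mean of the other 9 over the induction libraries. By rank (Spearman) these were 0.89, 0.76, 0.85, 0.84 and 0.78. Asz1, Piwil4 and Gtsf1 had r of 0.79, 0.76 and 0.71, and 0.66, 0.29 and 0.32 by rank. The litter 2 libraries of 12 and 48 h were among the 2 lowest of the 12 for 9 and 8 of the 10 genes. How far these r rest on those libraries was not tested, also for the 5 most alike genes. Tdrd9 had r of 0.22 and Tdrkh -0.30. Over the 9 baseline culture libraries Tdrd9 had -0.10 and Tdrkh 0.59, so the sign differed between the experiments for both. No interval was computed for these r, so the difference in sign is no result about either gene.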

How the data were processed

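Messenger RNA libraries were non-directional and poly-T selected, per the labels' protocols. Reads were aligned with STAR to mRatBN7.2, per the submitters' processing notes, while the counter and the annotation are not given in the sources used here. The authors deposited CPM for 21425 genes. All values were whole multiples of 1 read within 0.01 read, so reads were recovered. The genes in the table left out 2.93 to 4.71% of the reads.

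Each experiment was fitted alone with limma 3.58.1 (R 4.3.3, trend) on log2(CPM + 1), with group as the only term and its 12 libraries. Genes needed 1 CPM in 3 libraries, which kept 13055 and 12450 genes. Tests were two-sided, with Benjamini-Hochberg adjustment per comparison, 12 in all. Alternatives were edgeR 4.0.16 and DESeq2 1.42.0 on recovered reads, pseudocounts of 0.25 and 4, no filter, TMM scaling, a replicate block and each library left out.

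The 10 genes were named whatever their values. Other lists gave up to 4 called genes with the largest change and 1 called the other way, and genes outside this rule (Tdrd7 and Setdb1 at day 3, and those not called or under the filter) were added after their values were seen. The 5 most similar genes were ranked by Pearson's r over the induction libraries. Genes, lists and tests were chosen with earlier results of these data known. The procedure was tested on simulated data.

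The labels give the litters of the induction libraries. After group means were removed, 18 same-litter pairs had a median r across genes of 0.482 (-0.0119 to 0.747), 16 over 0.1, so they were treated as paired in the block. In the baseline experiment 18 same-number pairs had a median r of -0.000715 and were not. At day 3 these replicate numbers do not follow the D numbers in the library names, so they cannot show a pairing by D number. The baseline replicate block used the same replicate numbers.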

Additional observations from a re-analysis of the deposited data

How the results depend on the processing

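The calls held under nearly every alternative. Of 28 called results of the 10 genes, 27 stayed called in the same direction under each alternative that gave a value, and the exception was Tdrkh at day 5 against tissue, whose change ranged from 0.20 to 0.31 over the libraries left out. The results that stayed called include those of Gtsf1, whose direction the filter fixed. Gtsf1 gave no value without a tissue library, since it then fell under the filter. The number of the 10 genes called at day 7 against day 3 was 0 and became 1 with DESeq2 (Tdrd9), and the cause was not tested. With the litter or replicate block the genes called were 9, 10 and 9 at days 3, 5 and 7 against tissue and 0 in the other 9 comparisons, as without it. Against tissue the block called 55.4%, 59.2% and 59.4% of all genes at these days. For day 5 against day 3, day 7 against day 5 and day 7 against day 3 it called 0.0766%, 0% and 3.72%. Over all genes the block called 541 in place of 49 at 48 h against 0 h, 2756 in place of 991 at 48 h against 2 h, and 77, 368 and 89 in place of 0 at 2 h against 0 h, 12 h against 2 h and 48 h against 12 h. DESeq2 called 419, 2032, 377, 387 and 85 in the same order, and 9 at 12 h against 0 h. The count at 48 h against 0 h ranged from 7 to 49 over the libraries left out, with 7 without litter 1 at 0 h and 9 without litter 1 at 48 h. At 48 h against 2 h it was 215 without litter 1 at 48 h, 349 without litter 1 at 2 h and 423 without litter 3 at 48 h. Of 2262 alternative values of single genes, 100 changed sign, and 0 of these were called under either setting. TMM scaling moved the median of all genes by less than 0.1. Depth limits Asz1 and Gtsf1, which rest on 4 to 39 reads in each baseline culture library.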
